A study of Drosophila melanogaster with 4 samples.

Results

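Ovaries of Drosophila melanogaster were homogenised in detergent buffer, and a part of the homogenate set aside before any antibody was added gave the input RNA of a pseudouridine pulldown experiment. The 2 input libraries described here, labelled 1 and 3, are 2 of the 4 libraries of the series, chosen by their titles and not by any measured value. The other 2 libraries hold antibody-bound RNA and were not used. Both inputs came from flies whose genotype is labelled WT, neither received antibody, and both were enriched for polyadenylated RNA and built with a kit that keeps strand. In another part of its methods the study takes WT ovaries from UAS-Dcr2;nosGAL4 females a few days old and fattened overnight, flies in which the germline driver nos turns on GAL4 and a transgene supplies Dcr-2. The account of the pulldown does not repeat the genotype or the age, or say how many ovaries were pooled, and nothing says that the inputs came from separate cultures or animals, so the spread between them may be technical.

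A fly ovary is a bundle of ovarioles, each a string of egg chambers that mature from the germarium at the tip to the egg at the base. In each chamber a cyst of germline cells, most of them nurse cells that feed the oocyte, is wrapped in somatic follicle cells. Nurse cells fill the oocyte with maternal mRNAs, many of them held silent, localised or both, while follicle cells late in oogenesis secrete yolk, the vitelline membrane and the chorion. A muscle sheath surrounds each ovariole. Because whole ovaries were taken, fewer cells of a type and less RNA per cell cannot be told apart in any level given below.

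The inputs differed in depth. Input 1 held 4245717 reads counted on genes and input 3 held 12684875, or 2.99 times as many. Levels of a single gene are given as counts, as CPM (counts scaled to a common library total) or, where genes are compared with each other, as TPM (which is also divided by exon length). A floor of 3 counts corresponded to 0.707 CPM in input 1 and 0.237 CPM in input 3. Of 17023 genes listed, 7839 had at least 1 count in input 1 and 10365 in input 3. Thinned to the depth of input 1, input 3 would be expected to show 9357 genes, more than input 1 did.

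The ovary expressed 6982 genes (41.0% of those listed) at 1 CPM or more in both inputs. Of these, 5613 reached 10 CPM, 1530 reached 100 CPM and 106 reached 1000 CPM in both. Taken singly, input 1 had 7200 genes at 1 CPM or more and input 3 had 7634, and 6550 genes were listed at 0 in both. Protein-coding genes took 94.9% of counts in input 1 and 94.2% in input 3. Input 1 was the more concentrated library. There, 269 genes held 50% of counts, against 532 genes in input 3, and the 100 genes with the most counts took 35.5% of input 1 and 24.6% of input 3.

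Many of the most abundant transcripts belonged to 2 groups, the follicle cell products of the eggshell and the ribosomal proteins. Of 138 genes with a mean of 1000 TPM or more, 73 encoded cytoplasmic ribosomal proteins and 14 encoded eggshell or yolk proteins. The 10 highest by mean TPM were Vm34Ca, Vm26Aa, Vm26Ab, RpS27A, RpL41, dhd, RpS29, Cp15, Cp19 and Yp2. Among them dhd (FBgn0011761, chrX:5312171-5313125, plus strand), a thioredoxin made in the female germline, stood at 13273 TPM in input 1 and 5289.5 TPM in input 3. Ranked instead by raw counts summed over the inputs, which gives more weight to the deeper input 3, the list also held eEF2, Hsc70-4, Hsp83, dec and CycB, which are longer. It was led by FBgn0000556, with 14182 CPM in input 1 and 18059 CPM in input 3, for which the annotation used here has no name.

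**Figure D1:**
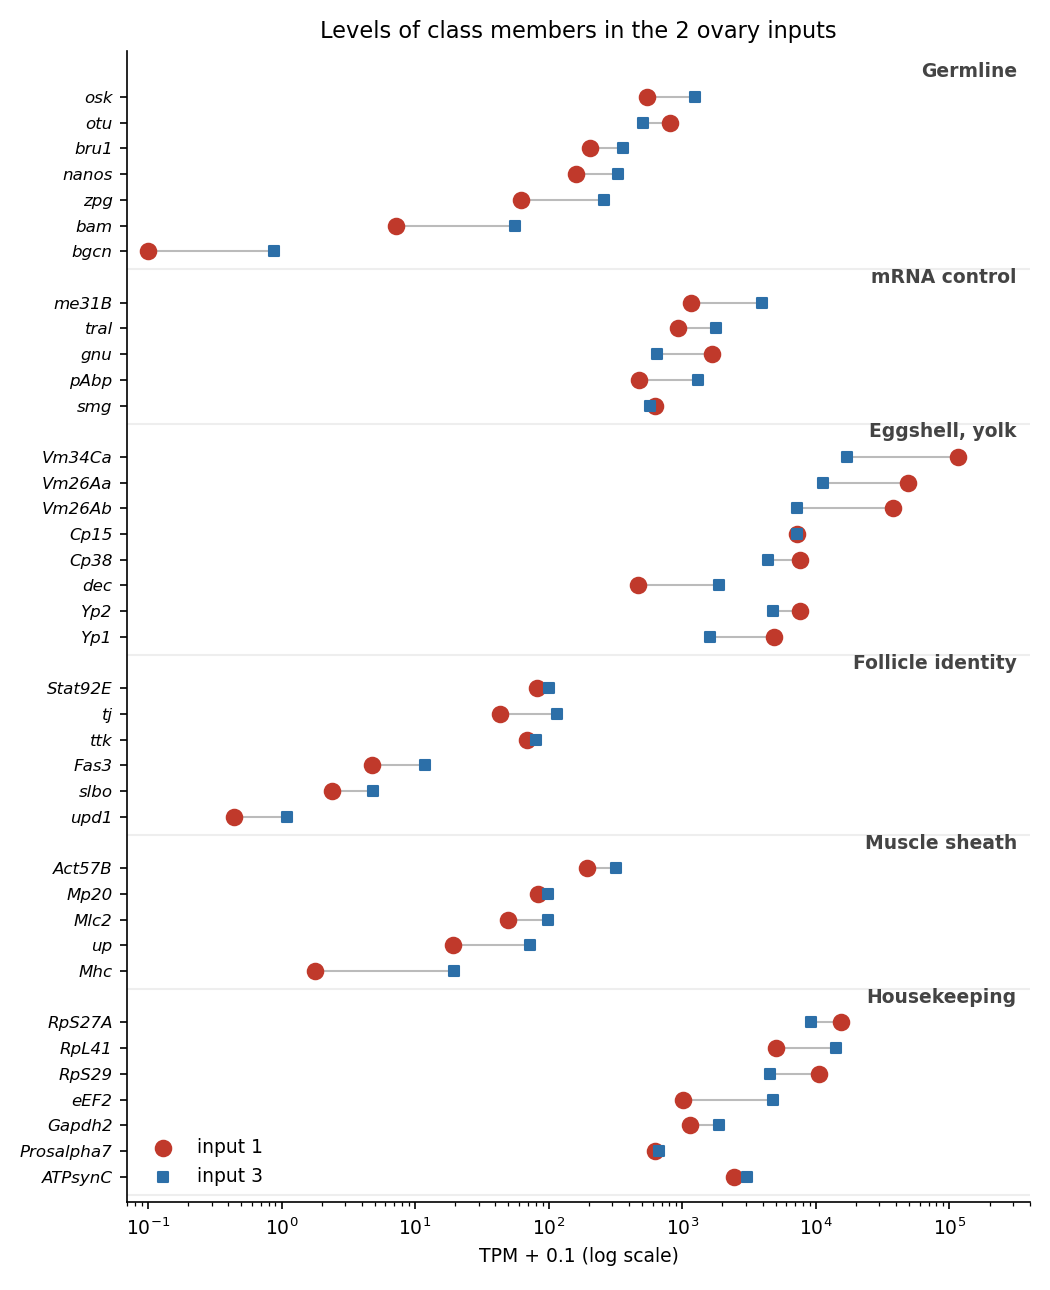
Levels of 38 named genes in input 1 (red circles) and input 3 (blue squares), in TPM + 0.1 on a log scale, grouped by class, with a grey line joining the inputs of a gene. Vitelline membrane genes reach 115879 TPM, germline genes run from the listed 0 of bgcn in input 1 to 1249.9 TPM for osk, and the sheath and follicle identity genes drawn lie further left in input 1 than in input 3.

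Genes that define the germline were broadly expressed. Of 24 measured genes of germline identity and germ plasm, 23 reached 1 CPM in both inputs, 21 reached 10 TPM in both and 9 reached 100 TPM in both. As a class they took 0.762% of counts in input 1 and 0.832% in input 3. The symbol vas was matched to no listed identifier and is not analysed here.

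oskar (osk, FBgn0003015), which nucleates the germ plasm at the posterior of the oocyte, was the highest of them by mean TPM. It had 4414 counts in input 1 and 23182 counts in input 3, or 548 and 1249.9 TPM. otu, a deubiquitinase needed for cyst development, had 806 TPM in input 1 and 505 TPM in input 3. pgc, which silences transcription in the embryo's germ cells, had 976 and 419.9 TPM, but 46.9% of its exon bases are shared with another gene and its level is uncertain. bru1, a repressor of osk translation, had 202 TPM in input 1 and 361 TPM in input 3, and nanos, a translational repressor that patterns the posterior, had 161 and 331 TPM.

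Single genes of early and late germline stages spanned a wide range. bam, which switches a stem cell daughter to cyst formation, had 39 counts in input 1 (7.14 TPM) and 698 counts in input 3 (55.5 TPM). Its partner bgcn had 0 counts in input 1 and 21 counts in input 3, below 1 TPM in both. The gap-junction gene zpg had 61.8 TPM in input 1 and 261 TPM in input 3, and orb, a regulator of oocyte translation, had 100.05 and 134 TPM, the inputs differing by less than 2-fold in CPM for orb but not for zpg. The oocyte's patterning signals bcd, with 79.9 TPM in input 1 and 77.6 TPM in input 3, and grk, with 18.03 and 32.8 TPM, were expressed in both.

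The piRNA pathway, which silences transposons in the germline, was expressed at intermediate levels. Its Argonaute proteins piwi and aub had 39.7 and 22.6 TPM in input 1, and 197 and 108 TPM in input 3. AGO3, the third of them, had 62.5 TPM in input 1 and 124 TPM in input 3. The nuclear cluster factors del and rhi were close between the inputs, del at 141 and 145 TPM and rhi at 78.0 and 64.6 TPM, while their partner cuff was low at 7.15 and 9.91 TPM. spn-E, a helicase of the pathway, was at 10.6 TPM in input 1 and 66.4 TPM in input 3.

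Machinery that localises and silences maternal mRNA was more abundant than the germline determinants themselves. The 20 genes of this class took 1.59% of counts in input 1 and 1.90% in input 3, and 12 of them reached 100 TPM in both. me31B, a DEAD-box protein of the granules that store repressed mRNA, had 6050 counts in input 1 and 47265 counts in input 3, or 1167 and 3963 TPM. Its partner tral had 931 TPM in input 1 and 1791 TPM in input 3. gnu, a subunit of the kinase that starts translation at egg activation, had 1679 and 649 TPM, its kinase partner png 88.5 and 88.6 TPM, and smg, which destroys maternal mRNA in the embryo, 627 and 570.0 TPM. cup, a repressor that binds eIF4E, was listed at 0 in both inputs, but all of its exon bases are shared with another gene in the annotation used here, and whether the authors counted reads on shared bases is not stated.

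Transcripts loaded for the early embryo were present as well. CycB and CycA, cyclins that drive the first nuclear divisions, had 2268 and 591 TPM in input 1, and 2497 and 1134 TPM in input 3. stg, the phosphatase that triggers mitosis, had 609 TPM in input 1 and 292 TPM in input 3. The dorsal-ventral pathway was represented from its receptor Tl (171 TPM in input 1, 149 TPM in input 3) to its inhibitor cact (141 and 167 TPM) and its transcription factor dl (35.9 and 26.8 TPM). The torso receptor tor had 33.2 TPM in input 1 and 65.3 TPM in input 3. zld, which activates the zygotic genome, had 50.02 and 40.4 TPM.

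Meiosis genes were expressed at low levels, and 13 of the 18 measured reached 1 CPM in both inputs. The highest was mtrm, an inhibitor of Polo kinase that holds the oocyte in arrest, with 499 TPM in input 1 and 589 TPM in input 3. c(3)G, the transverse filament of the synaptonemal complex, had 146 counts in input 1 and 1551 counts in input 3, or 19.8 and 91.3 TPM. Its central-element partner cona had 0 and 15 counts, and the 0 allowed up to 0.707 CPM in input 1. mei-217, listed at 0 in both, shares all of its exon bases with another gene.

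The subject of the study, the H/ACA complex that deposits pseudouridine on rRNA, was expressed with all 4 of its protein subunits. Nop60B, the catalytic subunit, had 504 TPM in input 1 and 647 TPM in input 3, and its 1137 and 1125 CPM were nearly the same. NHP2 had 185 and 337 TPM, Gar1 had 154 and 318 TPM, and Nop10 had 53.0 and 42.6 TPM, with 31.6% of Nop10 exon bases shared with another gene. The differentiation factor Rbfox1 had 10.8 TPM in input 1 and 10.1 TPM in input 3, the helicase gene ais 27.3 and 60.8 TPM, and Atx2 16.2 and 40.3 TPM.

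Follicle cell products of the late egg chamber were the most variable of the large classes. Genes of the vitelline membrane took 8.28% of counts in input 1 (95% Wilson interval 8.25% to 8.30%) and 2.08% in input 3 (2.07% to 2.08%). Intervals and floors cover counting error only, since reads are not independent molecules. Chorion genes took 2.09% and 1.07%, and yolk protein genes 1.55% and 0.690%. Together the 27 eggshell and yolk genes took 11.9% of input 1 and 3.83% of input 3, a share 3.11 times as large in input 1. All 27 reached 1 CPM in both inputs and 22 reached 100 TPM in both.

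Vm34Ca (FBgn0003983, chr2L:13411141-13411631, minus strand) was the highest by mean TPM among the genes with a matched exon length. FBgn0000556, which has none, had more counts in input 3 (229079) but fewer in input 1 (60213). Vm34Ca had 159812 counts in input 1 and 54486 counts in input 3, or 37641 and 4295 CPM, a ratio of 8.76. Vm26Aa had 24352 CPM in input 1 and 4312 CPM in input 3, and Vm26Ab had 16030 and 2331 CPM. These 3 structural proteins of the vitelline membrane held 94.3% of the class's counts in input 1 and 52.7% in input 3. Of the other 11 members, psd and Femcoat were also higher in input 1 and 9 were lower. dec, a large eggshell protein cleaved after secretion, had 1773 CPM in input 1 and 5489.6 CPM in input 3. ndl, a follicle cell protease that starts dorsal-ventral patterning, had 38.2 CPM in input 1 and 376 CPM in input 3, and fs(1)N, another eggshell component, had 265 and 5353 counts. Of the 14 members, 3 were more than 2-fold higher in input 1 and 6 more than 2-fold lower, where 7.59% of all genes were more than 2-fold higher in input 1 and 33.3% more than 2-fold lower.

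By CPM, 8 of the 10 chorion genes were higher in input 1 and 2 were lower. On the TPM scale, Cp15 had 7183 TPM in input 1 and 7228 TPM in input 3, Cp18 had 3166 and 3011 TPM, and Cp16 had 1790 and 1673 TPM. In CPM these were 1.29, 1.36 and 1.39 times as high in input 1. Cp38 and Cp36, from the amplified cluster of the X chromosome, had 7661 and 6691 TPM in input 1, and 4414 and 4029 TPM in input 3. Cp19 had 9578 TPM in input 1 and 4146 TPM in input 3. Muc12Ea, with 5 counts in input 1 and 229 in input 3, and Cp7Fa, with 476 and 2852, were lower in input 1. Of the 10 genes, 6 were within 2-fold in CPM, near the 59.2% of all genes with at least 10 counts. Yolk protein genes Yp1, Yp2 and Yp3, which supply the oocyte's store of nutrients, had 4889, 7587 and 1788 TPM in input 1, and 1624, 4799 and 1690 TPM in input 3. Yp1 shares 54.3% of its exon bases with another gene.

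Many promoters of these genes held a TATA box at a set distance from the start, which their classing did not use. In windows of 250 bases before to 50 bases after the annotated start, read from the RefSeq copy of the dm6 genome, the TATA box TATAAA on the gene's strand began 20 to 40 bases before the start in 13 of 27 eggshell and yolk genes (48.1%), against 1072 of 13630 protein-coding genes (7.87%). By class these were 6 of 14 vitelline membrane genes, 6 of 10 chorion genes and 1 of 3 yolk protein genes. The placed box was as frequent in some other lists, with 6 of 10 gut genes, 6 of 14 actin and tubulin genes and 59 of 111 replication-dependent histone genes. Sequences around the box are shown for the eggshell and yolk genes highest in mean TPM that held it, 5′ to 3′ on the gene's strand with the box in capitals.
Vm34Ca (chr2L:13411644-13411671, minus strand, 29 bases before the start): tgcatcgggtaTATAAAccgcaagtgtc
Vm26Aa (chr2L:5960355-5960382, minus strand, 31 bases before the start): gattggacagcTATAAAagatggccaat
Vm26Ab (chr2L:5956963-5956990, plus strand, 30 bases before the start): tccgagtgggcTATAAAgtggattggct
Cp15 (chr3L:8728440-8728467, plus strand, 30 bases before the start): taaaatttgcgTATAAAagcgagcgttt
Cp19 (chr3L:8729826-8729853, plus strand, 28 bases before the start): aaatttgcttaTATAAAgaagtgtgctt
Yp2 (chrX:10052648-10052675, minus strand, 28 bases before the start): attccaaggggTATAAAatgcattgagt
Cp36 (chrX:8479284-8479311, plus strand, 24 bases before the start): attataggcgcTATAAAgagccggagtc
The window of 20 to 40 bases was chosen after the positions were seen, and a match of 6 letters is a description of the sequence and not evidence of a bound factor.

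**Figure D2:**
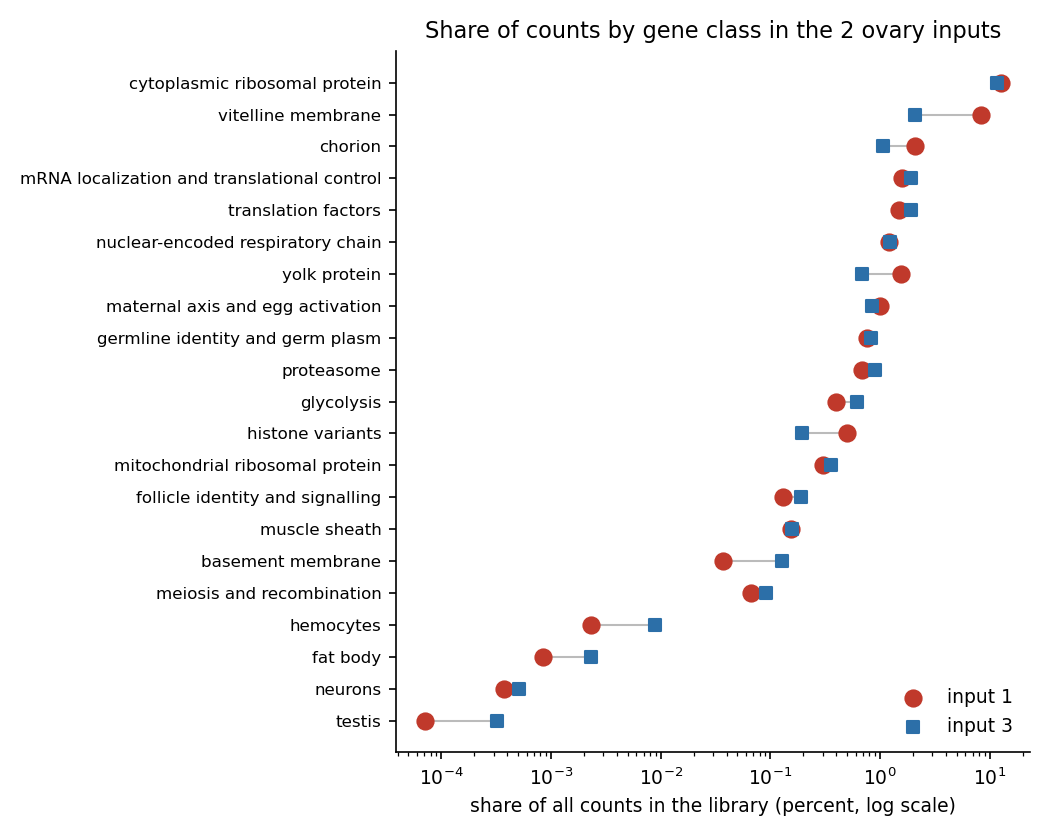
Share of all counts taken by 21 gene classes in input 1 (red circles) and input 3 (blue squares), in percent on a log scale. Ribosomal protein genes stand near 12% in both inputs, the vitelline membrane class is at 8.28% in input 1 and 2.08% in input 3, and the classes of other tissues lie below 0.01%. Gut genes, with no count in input 1, cannot be drawn on this axis.

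Regulators that give follicle cells their identity were expressed at a small fraction of the level of the eggshell genes. The 23 measured members took 0.130% of counts in input 1 and 0.189% in input 3, and 7 reached 10 TPM in both. tj, a transcription factor of somatic gonad cells, had 42.9 TPM in input 1 and 115.5 TPM in input 3. Stat92E, the effector of the JAK/STAT pathway, had 81.5 and 101 TPM, and ttk, a repressor that controls late follicle cell programmes, had 68.5 and 80.6 TPM. Markers of subsets were lower. Fas3, an adhesion protein of early follicle and polar cells, had 4.63 TPM in input 1 and 11.8 TPM in input 3. slbo, which specifies border cells, had 2.30 and 4.72 TPM, and upd1, the polar cell ligand, had 3 and 20 counts. cas, a marker of follicle precursors, had 0 and 22 counts. Of the 23, 20 had a lower CPM in input 1 than in input 3, 10 of them by more than 2-fold, and 0 were more than 2-fold higher in input 1, against 33.3% of all genes more than 2-fold lower and 7.59% higher. These are long genes (median 6400 exon bases), and their median log2 ratio differed by -0.02 from that of genes in the same length bin.

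The somatic niche of the germarium was near the limit of detection. Among its 9 measured genes, fax, an escort cell marker that is not restricted to them, had 207 TPM in input 1 and 114 TPM in input 3. The others were below 2 TPM in both. dpp, the ligand that maintains germline stem cells, had 0 counts in input 1 and 66 in input 3, and ptc, the Hedgehog receptor, had 10 and 40. en was listed at 0 in both inputs, which allowed up to 0.707 CPM in input 1 and 0.237 CPM in input 3. hh, with 0 and 3 counts, and Lmx1a, with 0 and 1, were at or under the floor.

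Muscle genes of the sheath took a small share of counts, 0.153% in input 1 and 0.159% in input 3. Without Tm1, a tropomyosin gene that also has isoforms outside muscle, the shares were 0.0591% and 0.0999%. Act57B, a muscle actin, had 192 TPM in input 1 and 317 TPM in input 3. Mp20, a calponin-like muscle protein, had 83.0 and 99.2 TPM, Mlc2, a myosin light chain, had 49.7 and 98.4 TPM, and up, a troponin T, had 19.0 and 72.0 TPM. Mhc, the myosin heavy chain, had 43 counts in input 1 and 1137 counts in input 3, or 1.69 and 19.4 TPM. The very long genes of the sarcomere were nearly absent from input 1. sls, encoding titin, had 1 count there and 140 in input 3, and zormin, another component of the Z disc, had 1 and 167. Tm1 had the most counts of the class, 3992 of 6500 in input 1 and 7468 of 20141 in input 3. By CPM it was higher in input 1, with the highest log2 ratio of the class (0.67). Of the 18 members with at least 10 counts, 4 had a higher CPM in input 1 and 14 a lower one. More than 2-fold lower in input 1 were 10 of the 18, and 0 were more than 2-fold higher, where all genes gave 33.3% and 7.59%.

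All 6 basement membrane genes with at least 10 counts were lower in input 1. These are long genes (median 6223.5 exon bases). Over all genes with at least 10 counts the median log2 ratio of input 1 over input 3 was -0.49. Among those with over 4000 exon bases it was -0.92, and 46.6% were more than 2-fold lower in input 1. The class took 0.0366% of input 1 and 0.129% of input 3. Col4a1 and vkg, the collagen IV chains, had 29.9 and 21.5 TPM in input 1, and 134 and 108 TPM in input 3. The laminin subunits LanA, LanB1 and LanB2 had 11.5, 4.53 and 7.04 TPM in input 1, and 35.5, 47.2 and 36.4 TPM in input 3. Markers of hemocytes and fat body, which also make basement membrane proteins, were lower in input 1 as well. The 6 hemocyte markers took 0.00231% of counts in input 1 and 0.00893% in input 3, and the 7 of fat body took 0.000848% and 0.00232%. All 4 hemocyte markers with at least 10 counts, also long genes (median 5893 exon bases), were lower in input 1, while He and NimC1 were listed at 0 there. The part of these cells in the basement membrane levels was not tested.

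Ribosomal protein genes took the largest share of counts of the classes in both libraries, with 12.7% in input 1 and 11.8% in input 3. By summed TPM in input 1 the vitelline membrane class stood at 207462 TPM and the ribosomal proteins at 205394 TPM. Of 83 genes, 79 had at least 10 counts and 63 reached 1000 TPM in both inputs. RpS27A, which encodes a ubiquitin fusion, had 15521 TPM in input 1 and 9247 TPM in input 3. RpL41, the shortest ribosomal protein, had 5025 and 14106 TPM. RpS29 had 10631 TPM in input 1 and 4555 TPM in input 3. Although the class totals were close, 10 of the 79 genes were more than 2-fold higher in input 1 and 19 more than 2-fold lower, against 7.59% and 33.3% of all genes, and 50 were within 2-fold, near the 59.2% of all genes. The farthest was RpL22, with 43 counts in input 1 and 5137 in input 3, of whose exon bases 34.3% are shared with another gene.

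Several ribosomal proteins are encoded by paired genes. Both copies of some pairs were abundant in the inputs, while 1 copy of other pairs was low or nearly without counts. RpS5a had 1027 TPM in input 1 and 1292 TPM in input 3, and RpS5b, a copy known for expression in the germline, had 589 and 2197 TPM. RpS14a had 1812 TPM in input 1 and 1669 TPM in input 3, and RpS14b had 223 and 1146 TPM. RpS19a had 1117 and 1987 TPM, but RpS19b only 2.67 and 3.25 TPM. In the study, depleting RpS19b in the germline blocked cyst differentiation, so its low level in whole ovaries is not read as lack of use. RpL10Aa and RpS28a were listed at 0 in both inputs, and RpS10a and RpL37-2 had 0 and 1 count each. Because such copies are similar in sequence, reads could be split between them or dropped by the authors' counting, and the order within a pair is uncertain.

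The motif named the DRE core, TATCGATA, is bound by the factor DREF and lies in many promoters of housekeeping genes. It was found in the whole window in 23 of 83 ribosomal protein genes (27.7%), 12 of 48 proteasome genes (25%) and 8 of 15 translation factor genes (53.3%), and in 9.22% of all protein-coding windows. Among the other housekeeping genes it was in 9 of 80 of the respiratory chain (11.25%), near the share of all genes, and in 0 of 11 of glycolysis. It was in 4 of 24 germline genes (16.7%) and in none of the 14 vitelline membrane, 10 chorion and 19 sheath genes. The motif reads the same on both strands. Stretches of at most 30 bases are shown for 2 ribosomal protein genes among the highest in mean TPM that held it, and for dhd, nanos and bru1 of the germline, with the motif in capitals.
RpL37-1 (chrX:15139406-15139435, minus strand, 57 bases before the start): cggacaaaaacTATCGATActcgcgcaacg
RpS6 (chrX:7901368-7901397, minus strand, 55 bases before the start): tgagcacgaacTATCGATAtgcggcggtac
dhd (chrX:5312115-5312144, plus strand, 45 bases before the start): attcatatcgaTATCGATAgacctgccgtg
nanos (chr3R:19157169-19157198, plus strand, 58 bases before the start): tttactaaaaaTATCGATAtatttattatc
bru1 (chr2L:12174945-12174974, plus strand, 48 bases before the start): ctgggctgcatTATCGATAaaagcccgcac
In dhd a further copy began 51 bases before the start and overlapped the one shown.

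Other housekeeping classes differed in how many of their genes were expressed. Together the 237 genes of ribosomal proteins, translation factors, glycolysis, the proteasome and the respiratory chain took 16.5% of counts in input 1 and 16.4% in input 3, and 192 of them reached 1 CPM in both while 30 were listed at 0 in both. The translation factors eEF1alpha1 and eEF5 were matched to no listed identifier. The shares of the translation factor and housekeeping classes therefore leave them out and may be too low. Whether their counts lie under identifiers without a match, such as FBgn0000556, was not determined. eEF2, the translocase of elongation, had 8679 counts in input 1 and 94428 counts in input 3, or 1011 and 4780 TPM, and eIF4A, the initiation helicase, had 2158 and 1661 TPM. eIF3a was among the genes farthest apart, with 226 and 11048 counts. Gapdh2, of glycolysis, had 1138 TPM in input 1 and 1877 TPM in input 3. Among proteasome genes 32 of 48 reached 1 CPM in both, led by Prosalpha2 with 1152 and 529 TPM, while 11 were listed at 0 in both. All 11 carry an R or T in their symbol, which marks a related copy of a subunit gene. The cytoskeletal genes Act5C and alphaTub84B had 2405 and 1078 TPM in input 1, and 2232 and 2199 TPM in input 3.

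The 2 classes of nuclear genes of mitochondria differed more in their share of counts than in median level. The respiratory chain had a median of 84.7 TPM in input 1 and 142 TPM in input 3. Mitochondrial ribosomal protein genes had medians of 65.5 and 107 TPM. Subunits of the respiratory chain took 1.20% of counts in input 1 and 1.24% in input 3, with 56 of 80 genes at 1 CPM or more in both and 17 listed at 0 in both, and were led by ATPsynC, the membrane ring of ATP synthase, at 2457 and 3030 TPM. Mitochondrial ribosomal protein genes took 0.303% and 0.358%, and 70 of the 71 reached 1 CPM in both inputs. mRpL12 was the highest at 255 TPM in input 1 and 297 TPM in input 3. The E-box CAGCTG was in the promoter window of 39 of these 71 genes (54.9%), against 17.7% of all protein-coding windows and 7 of 83 cytoplasmic ribosomal protein windows (8.43%). It too reads the same on both strands. Examples are shown for members among the highest in mean TPM with the motif within 100 bases before the start.
mRpL14 (chrX:2344705-2344732, minus strand, 72 bases before the start): tccgctcttaaCAGCTGcttgctctgtt
mRpS35 (chr3L:2780876-2780898, plus strand, 12 bases before the start): gtttctgtaaaCAGCTGattgct
mRpL32 (chr3R:31252845-31252871, plus strand, 16 bases before the start): tatcgatagcaCAGCTGtttcctcttg
mRpL45 (chr3R:22618472-22618491, plus strand, 9 bases before the start): atcacgtttgcCAGCTGgtc
The stretch of mRpL32 begins with a whole copy of the DRE core.

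Several kinds of RNA had few or no counts. Of 111 replication-dependent histone genes, which end in a stem-loop, 109 were listed at 0 in both inputs. These genes are near-identical copies, and reads that match several of them may not have been counted, so that their zeros are not read as absence. The polyadenylated histone variants were abundant: His2Av had 3340 TPM in input 1 and 764 TPM in input 3, and BigH1, the linker histone of the early embryo, had 699 and 767 TPM. All 37 mitochondrially encoded genes were listed at 0 in both inputs, although transcripts of that genome are known to be abundant and polyadenylated, so that these zeros are not read as absence either. Annotated rRNA genes had 4 counts in input 1 and 1 in input 3. The noncoding genes with the highest CPM were the pseudogene 18SrRNA-Psi:CR41602, with 3848 CPM in input 1 and 56.7 CPM in input 3, and lncRNA:CR42862, with 379 and 803 CPM. As a pseudogene of rRNA, 18SrRNA-Psi:CR41602 cannot be told apart here from rRNA whose reads map to it.

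Most markers of other tissues were at or near 0. Of 44 markers of fat body, gut, neurons, testis and hemocytes, 23 were listed at 0 in both inputs. At 1 CPM or more in both were 1 marker each of fat body, neurons and hemocytes, and 2 markers reached 1 TPM in both. These were apolpp, the lipoprotein of the fat body, with 1.06 TPM in input 1 and 3.69 TPM in input 3, and srp, a transcription factor of fat body and blood cells, with 5.68 and 22.7 TPM. All digestive enzymes of the gut list but Mal-A1 were listed at 0 in both. Hml, a hemocyte marker, had 0 counts in input 1 and 62 in input 3, and Pxn had 1 and 193. Of 42 genes of the Y chromosome, 39 were listed at 0 in both. Sxl, the switch gene of female development, had 34.6 TPM in input 1 and 47.2 TPM in input 3, and the roX RNAs of the male dosage compensation complex had 0 and 12 counts for lncRNA:roX1 and 0 in both for lncRNA:roX2.

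How far the inputs agreed was then measured gene by gene. Across the 7981 genes with at least 10 counts in the inputs together, log2(CPM + 1) correlated at Pearson r = 0.892 and Spearman's rho = 0.873. Genes are not independent replicates, and no p-value is attached. The log2 ratio of input 1 over input 3 had a median of -0.49 and an SD of 1.15. With edgeR's TMM library sizes the median was -0.13, so the ratio of a single gene also depends on the scaling. Within 2-fold were 4721 genes (59.2%), while 606 were more than 2-fold higher in input 1 (7.59%) and 2654 more than 2-fold lower (33.3%). More than 8-fold higher in input 1 were 8 genes (0.1%) and more than 8-fold lower 191 (2.39%). The spread far exceeded counting error at every level. Among genes at 1000 CPM or more the SD was 1.15, where counting error gives 0.0199, and among those at 100 to 300 CPM it was 1.00 against 0.0653. edgeR's common dispersion, estimated on 6902 genes with no test, corresponded to a biological coefficient of variation of 0.520. The counts of the inputs differed by more than sampling noise, with a chi-square per degree of freedom of 241.

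**Figure D3:**
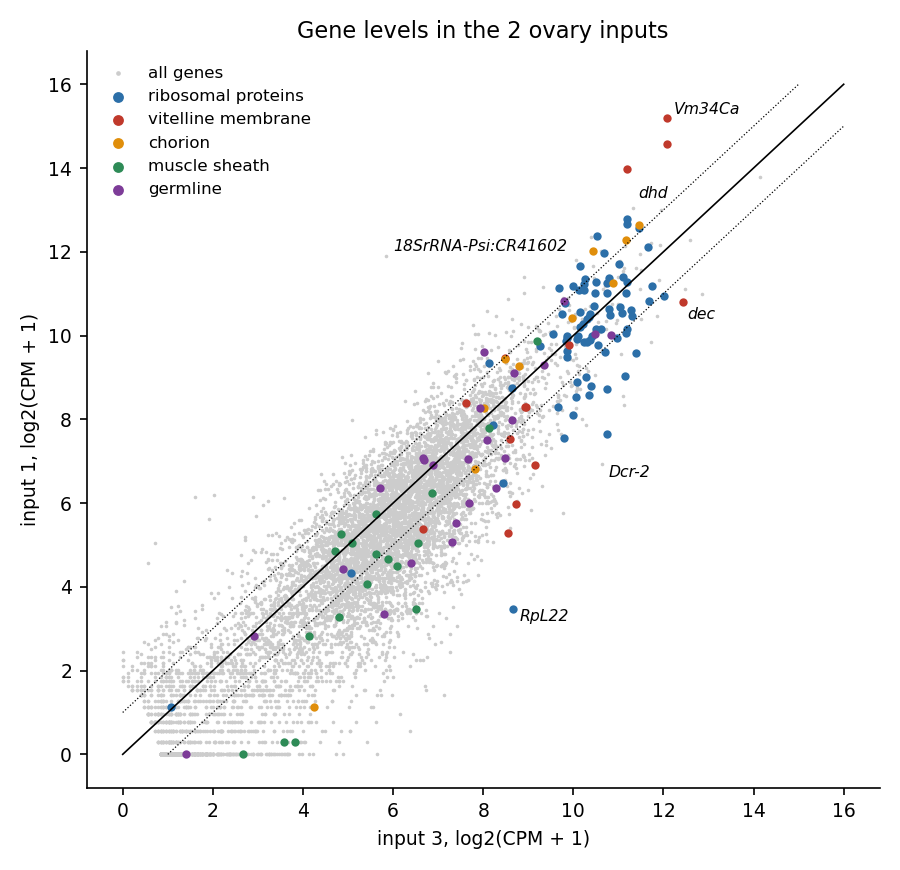
Levels of the genes with at least 10 counts in input 1 (vertical) against input 3 (horizontal), both as log2(CPM + 1), with 5 classes in colour, the line of equality and dotted lines at 2-fold. The cloud lies below the line at low levels (median log2 ratio -0.49 over all genes), and the 3 highest vitelline membrane genes lie above it.

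The ratio moved with gene length. Across 7791 genes with a known exon length, it correlated with length at Spearman's rho = -0.291, and at -0.321 over the 4798 genes that share no exon base with another gene. The median log2 ratio was 0.15 for genes with up to 1000 exon bases, -0.34 above that and up to 2000, -0.68 above that and up to 4000, and -0.92 above 4000. The ratio also moved with level, with a weaker rank correlation (rho = 0.199 with mean CPM). Among genes with at least 100 counts, its median ran from -0.80 under 30 CPM to 0.24 at 1000 CPM or more. Within the vitelline membrane class the ratio also fell with length. Its 14 members gave rho = -0.714, running from Vm34Ca, with 491 exon bases and a log2 ratio of 3.13, to ndl, with 8230 exon bases and a log2 ratio of -3.27. In the 18 sheath genes rho was -0.695. In the 79 ribosomal protein genes it was 0.0096, and in the 24 germline genes -0.0887. The cause of either relation, with length or with level, was not tested.

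**Figure D4:**
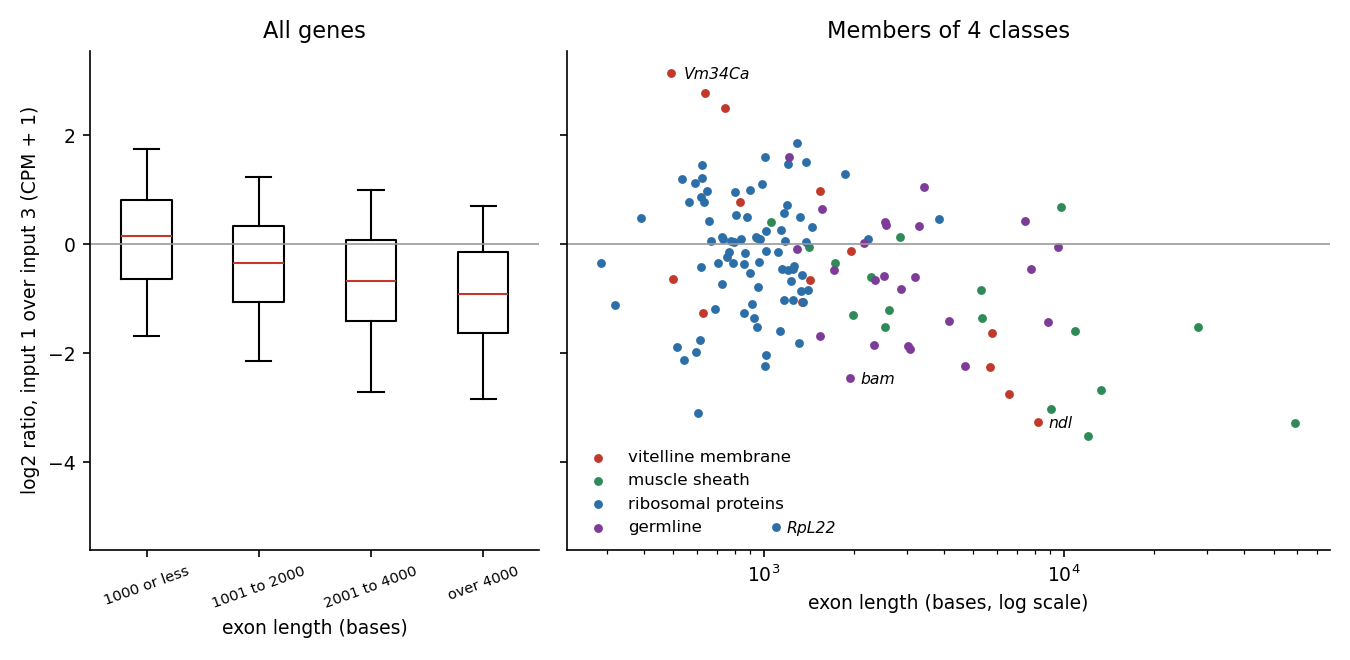
Log2 ratio of input 1 over input 3 (CPM + 1) by exon length. Left, all genes with at least 10 counts in 4 bins of length, with the median in red, boxes from the 25th to the 75th percentile and whiskers from the 5th to the 95th; right, each member of 4 classes on a log scale of length. Medians run from 0.15 in the shortest bin to -0.92 in the longest.

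Class differences between the inputs were therefore set beside genes of like length, with no adjustment for level. The median log2 ratio of the 27 eggshell and yolk genes lay 0.94 above that of all genes, and 0.32 above that of genes in the same length bin (median exon length 1249 bases). The sheath median lay at -0.76 against all genes and -0.49 against genes of the same length bin (4068 bases), and the housekeeping median at 0.30 and -0.11 (1013 bases). Germline genes lay at -0.03 and 0.09 (2709 bases), the least removed of these classes from all genes. The vitelline membrane median alone lay at -0.15 against all genes and -0.51 against genes of the same length bin, although the share of counts of the class was 3.99 times as large in input 1. Yolk protein genes remained 1.38 above genes of their length bin, with all 3 higher in input 1, and basement membrane genes remained at -0.94, with all 6 counted members lower.

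Genes nearly missing from input 1 were examined last. With at least 200 counts in input 3, 21 genes had 3 counts or fewer in input 1, all protein-coding, and 15 of these shared exon bases with another gene (71.4%). Among the 191 genes more than 8-fold lower in input 1, 69.6% of those matched shared exon bases, against 38.4% of all genes with at least 10 counts, and their median exon length was 3059 bases, against 2141. The lowest ratios belonged to CG9485 (2 and 1043 counts), CG2747 (7 and 1764), Nup93-2 (0 and 621), raptor (8 and 1335) and CG4658 (4 and 889). Of these raptor encodes a subunit of the Tor kinase complex and Nup93-2 a nuclear pore protein. The highest belonged to 18SrRNA-Psi:CR41602 (16337 and 719 counts), FBgn0085779, 28SrRNA-Psi:CR41609, RNaseMRP:RNA and FBgn0085778. The part of depth, length and shared exon bases in these differences was not tested.

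Dcr-2, the Dicer of the siRNA pathway, also set the inputs apart. It had 512 counts in input 1 and 20022 counts in input 3, or 121 and 1578 CPM, which is 13.1 times as high in input 3, and only 0.0176% of its exon bases are shared with another gene. Dcr-2 is a long gene. Among genes with over 4000 exon bases the median log2 ratio was -0.92, and 46.6% were more than 2-fold lower in input 1. Dcr-1, the Dicer of the miRNA pathway, had 75 and 1056 counts. These are not scaled for depth, which was 2.99 times as large in input 3, and so are not to be set against the scaled ratio of Dcr-2. Scaled to CPM, Dcr-1 was lower in input 1 as well. Both libraries are labelled WT. Whether the Dcr-2 transgene of the WT females in the study's methods was present in the flies of either input was not tested. The eye pigment transporter w was at 157 TPM in input 1 and 194 TPM in input 3, and the cuticle pigment gene y had 0 and 1 count.

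Across all genes, promoter motifs changed in frequency with the level of expression in the ovary. The DRE core was in 1.98% of windows of protein-coding genes listed at 0 in both inputs (95% Wilson interval 1.60% to 2.45%), in 1.84% above 0 and under a mean of 1 TPM, in 6.46% at 1 to 10 TPM, in 17.8% at 10 to 100 TPM, in 17.4% at 100 to 1000 TPM and in 26.3% at 1000 TPM or more (19.6% to 34.2%). The E-box was in 12.4% of windows of genes listed at 0, was most frequent at 10 to 100 TPM with 25%, and was in 3.65% of windows at 1000 TPM or more (5 of 137). A TATA box placed 20 to 40 bases before the start was in 15.1% of genes listed at 0, in 2.16% at 10 to 100 TPM and in 12.4% at 1000 TPM or more. The lowest and highest levels hold genes of lists described above. Of 138 genes at 1000 TPM or more, 73 encoded cytoplasmic ribosomal proteins. That list held the DRE core in 27.7% of windows and the E-box in 8.43%. A further 14 were eggshell or yolk genes, whose sites were seen before the window was chosen. Genes listed at 0 included 109 of the 111 replication-dependent histone genes, a list in which 59 held the box. Searched for anywhere in the window on either strand, TATAAA was in 45.9% of all protein-coding windows and between 39.5% and 55.5% at every level.

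**Figure D5:**
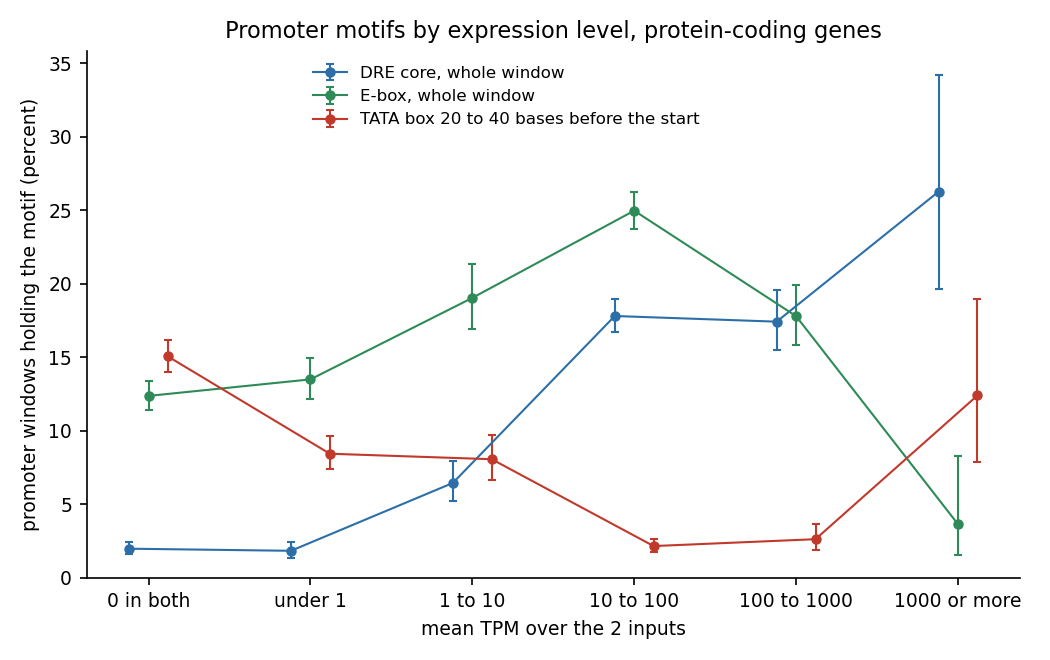
Share of promoter windows of protein-coding genes that hold the DRE core or E-box (anywhere in the window) or a TATA box 20 to 40 bases before the start, by mean TPM over the 2 inputs. Points are percentages and bars 95% Wilson intervals. The DRE core is at 1.98% among genes listed at 0 and 26.3% among the most abundant, and the placed TATA box is most frequent at both ends, 15.1% and 12.4%.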

How the data were processed

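Poly(A) RNA of 2 input libraries was analysed. The deposited files hold raw counts per FlyBase gene, made by the authors from single-end reads aligned to dm6; their processing notes name HISAT2 2.1.0, featureCounts 1.4.6 and DESeq2 1.24.0, and the strand setting is not given in the sources used here. Counts were scaled to the library total (CPM) and, with union exon lengths of Ensembl release 115 (16647 of 17023 identifiers, 97.8%), to TPM; the 376 unmatched identifiers held 4.51% of counts in input 1 and 5.59% in input 3. Of 291 entries named by symbol in the gene lists, 12 had no match. Ratios used log2(CPM + 1) over genes with at least 10 counts. The dispersion was estimated with edgeR 4.0.16 in R 4.3.3 (TMM, intercept only) and tested on simulated counts. Wilson intervals are at 95%. Promoter windows began at the annotated gene start, which need not be the start used in the ovary. Of 30618 start codons read from the same genome copy, 99.8% were ATG.

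Members and gene lists were chosen with earlier results of these data known, and symbols were updated through RefSeq synonyms afterwards. fs(1)ph was dropped as a synonym of fs(1)M3. Genes were named by rule: the 10 highest in TPM and in counts, up to 4 per list, markers listed at 0, the 5 highest and 5 lowest ratios, 5 noncoding genes, the study's subject and strain markers. Others named were chosen after their values were seen. No groups were compared, so no p-value is given. Some items are not reported here.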

Additional observations from a re-analysis of the deposited data

How the results depend on the processing

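No paired analysis was possible because no groups were compared and no value comes from a test. The number of genes at 1 CPM or more in both inputs, 6982, stayed within 1.5 times under each alternative tried (7200 and 7634 in single inputs). Pearson's r, 0.892, was 0.962 without a filter on low counts, 0.812 for genes with at least 100 counts, 0.872 with a pseudocount of 0.1 CPM and 0.873 as Spearman's rho. The SD of the log2 ratio, 1.15, was 0.839 without a filter, 1.56 and 0.820 with pseudocounts of 0.1 and 10 CPM, and 1.077 without genes that share exon bases. Mean shares of counts were 0.797% for germline, 0.156% for sheath, 7.88% for eggshell and yolk and 16.4% for housekeeping genes. As shares of TPM they were 0.427%, 0.0789%, 16.8% and 27.8%. Without the 10 genes with the most counts, the 4 shares were 0.874%, 0.171%, 2.73% and 17.5%, and without genes that share exon bases 0.390%, 0.0735%, 9.59% and 15.8%. Without Tm1, also chosen after seeing the data, the sheath share was 0.0795%. Single inputs ranged from 0.762% to 0.832%, 0.153% to 0.159%, 3.83% to 11.9% and 16.4% to 16.5% for the 4 classes. Against genes of the same exon length bin, an alternative chosen after seeing the data, the median log2 ratios were 0.085 (germline), -0.49 (sheath), 0.32 (eggshell and yolk) and -0.11 (housekeeping), so the germline and housekeeping medians changed sign. With 2 libraries, no spread within a condition can be set against the difference between them. Depth limited input 1, where a gene under 0.707 CPM cannot be told from absent.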

Other observations

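The share of listed genes at 1 TPM or more in both inputs differed among chromosomes. It was 48.8% on the X chromosome (1235 of 2530 genes) and 50% on chromosome 4 (54 of 108), against 34.8% on arm 2L, 38.5% on 2R, 41.2% on 3L and 42.0% on 3R. No test was run on this order. The median level of the expressed genes was 29.5 TPM in input 1 and 48.9 TPM in input 3 on the X chromosome, and on the other large arms 27.7 to 29.8 TPM in input 1 and 51.1 to 54.1 TPM in input 3. Among the Y-linked genes, CR41506 had 0 counts in input 1 and 107 counts in input 3.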
